A study of Mus musculus with 18 samples.

Results

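A set of 10 genes that mark testicular macrophages was followed across 18 testis libraries. They were taken by name from the deposited table, as the rows whose gene symbol is Adgre1, Csf1r, Cd68, Mrc1, Cd163, C1qa, C1qb, C1qc, Lyz2 or Lyz1, and all 10 were present among its 20985 genes. RNA was sequenced from whole testis of 10-week-old ICR mice, an outbred strain, in 6 groups of 3 libraries. The control group is described by that word only. The AOS group received alginate oligosaccharide, a mixture of short sugar chains from brown algae, at 10 mg/kg. Streptozotocin, given to the STZ group, is toxic to the insulin-producing beta cells of the pancreas and is used to model diabetes. Mice of the STZ + AOS group received streptozotocin and the same dose of AOS. In the other two groups streptozotocin was combined with a transplant of faecal microbiota. The labels were read as naming donors dosed with AOS at 10 mg/kg for the AOS-transplant group, and control donors for the control-transplant group. Diabetes itself, and the time between the agents and tissue collection, are not described in the labels. Nor do they say that the 3 libraries of a group came from separate animals, so every p-value here measures the spread between these samples only.

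Macrophages are the most common immune cells of the normal testis. They lie in the interstitium beside the steroid-producing Leydig cells and on the wall of the seminiferous tubules, are maintained through the receptor for colony stimulating factor 1, and are known for damping immune reactions against germ cells. The markers have different roles. Csf1r encodes that growth factor receptor, and Adgre1 encodes F4/80, the adhesion receptor by which mouse macrophages are usually recognised. Cd68 encodes a lysosomal glycoprotein, Mrc1 the mannose receptor, and Cd163 the receptor that clears haemoglobin bound to haptoglobin. C1qa, C1qb and C1qc encode the A, B and C chains of C1q, the recognition molecule that starts the classical complement pathway. Lyz2 and Lyz1 encode lysozymes, enzymes that cut the bacterial cell wall.

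The 3 C1q genes lie side by side on chromosome 4 (C1qb at chr4:136880129-136886187, C1qc at chr4:136889804-136893065, C1qa at chr4:136895917-136898803, minus strand, GRCm38). The lysozyme genes are neighbours on chromosome 10 (Lyz2 at chr10:117277331-117282321 and Lyz1 at chr10:117287797-117292868, minus strand). Cd68 lies at chr11:69664213-69666153 on the minus strand. Adgre1 (chr17:57358691-57483527), Mrc1 (chr2:14229392-14332057) and Cd163 (chr6:124304656-124330527) are on the plus strand. RefSeq promoter windows, from 250 bases before to 50 after the start, were found for 7 of the 10 markers. They were searched on both strands for AGGAAGT, a core word of the sites bound by ETS-family factors such as PU.1, the lineage regulator of macrophages. It was present in 5 of the 7 windows (Lyz2, Lyz1, C1qb, C1qc and Mrc1) and in 9.351% of all 32851 promoter windows of this length, and was not found in those of Cd68 and Cd163. The stretches of 100 bases around each match are shown 5′ to 3′ on the strand of the gene (RefSeq, GRCm38.p6), so that the genes that moved together can be compared, with the match, which reads ACTTCCT on this strand in all 5, in capitals.
Lyz2, chr10:117282323-117282422, minus strand: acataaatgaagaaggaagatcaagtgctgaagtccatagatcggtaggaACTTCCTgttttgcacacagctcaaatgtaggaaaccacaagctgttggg
Lyz1, chr10:117292919-117293018, minus strand: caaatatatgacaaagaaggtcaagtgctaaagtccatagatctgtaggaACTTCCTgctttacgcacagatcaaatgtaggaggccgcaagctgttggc
C1qb, chr4:136886201-136886300, minus strand: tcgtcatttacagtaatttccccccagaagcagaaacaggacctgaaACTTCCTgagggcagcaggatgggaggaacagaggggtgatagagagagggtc
C1qc, chr4:136893065-136893164, minus strand: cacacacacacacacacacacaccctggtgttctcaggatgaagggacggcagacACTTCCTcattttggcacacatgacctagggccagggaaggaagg
Mrc1, chr2:14229164-14229263, plus strand: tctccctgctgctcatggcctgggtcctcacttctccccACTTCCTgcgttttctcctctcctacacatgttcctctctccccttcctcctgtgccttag
The match began at position -100 relative to the RefSeq start in both lysozyme genes, whose stretches were identical at 79 of 100 positions. It began at -53 in C1qb, -195 in C1qc and -211 in Mrc1. A match describes these letters only, and binding was not measured.

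Values are FPKM, fragments scaled by transcript length and library depth, so that levels of different genes can be set side by side. Read numbers cannot be recovered from the table, so the depth is unknown. Sums over all genes were 561038 to 622169 FPKM per library, and log2 values of replicate libraries correlated at 0.9874 to 0.9964. STZ replicate 1 stood apart from the other two STZ libraries. Its summed level of 8 Leydig genes was 1799 FPKM, against 12010 and 12810 FPKM in replicates 2 and 3 and 3523 to 4045 FPKM in control libraries. In STZ replicate 3 the summed level of 6 fat cell genes was 165.5 FPKM. It was 19.03 and 25.93 FPKM in STZ replicates 1 and 2 and 15.87 to 30.93 FPKM in control libraries. Outside STZ, the summed level of 10 leukocyte genes was 151.4 FPKM in control replicate 3 and 236.8 FPKM in control-transplant replicate 2. The other libraries of these groups had 23.66 and 19.13 FPKM, and 19.97 and 50.04 FPKM. Sums of neutrophil genes in these 2 libraries were 7.63 and 4.98 FPKM, the highest of their groups.

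In control testis the most abundant marker transcript was Lyz2, at 17.9 ± 0.968 FPKM (SD, n = 3 here and below), followed by C1qb at 14.4 ± 1.73 FPKM. C1qa, C1qc and Mrc1 formed a middle level, with overlapping libraries between 5.78 and 7.52 FPKM. Cd68 (3.31 ± 0.155 FPKM) and Csf1r (2.63 ± 0.218 FPKM) came next, then Adgre1 (1.37 ± 0.03 FPKM), Lyz1 (1.07 ± 0.0917 FPKM) and Cd163 (0.22 ± 0.0346 FPKM). The mean of the STZ group was the highest of the 6 group means for all 10 markers. The other 5 group means lay closer together, though less so for Lyz1 and Cd163. Among these 5 groups, Lyz1 means ran from 0.753 FPKM (STZ + AOS) to 1.72 FPKM (control-transplant). Those of Cd163 ran from 0.2 FPKM (AOS) to 0.453 FPKM (STZ + AOS). Summed over the 10 genes, the level was 60.25 ± 0.867 FPKM in control, 194.6 ± 55.9 FPKM in STZ, and between 53.39 ± 7.16 (STZ + AOS) and 67.14 ± 6.86 FPKM (control-transplant) in the other 4 groups. In bulk tissue more macrophages, more of these transcripts per macrophage and less RNA from other cells cannot be told apart, as FPKM is scaled by library depth. The summed level of 8 late spermatid genes was 53540 ± 3403 FPKM in control and 35010 ± 10780 FPKM in STZ libraries. The part of this fall in the marker levels was not tested.

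**Figure D1:**
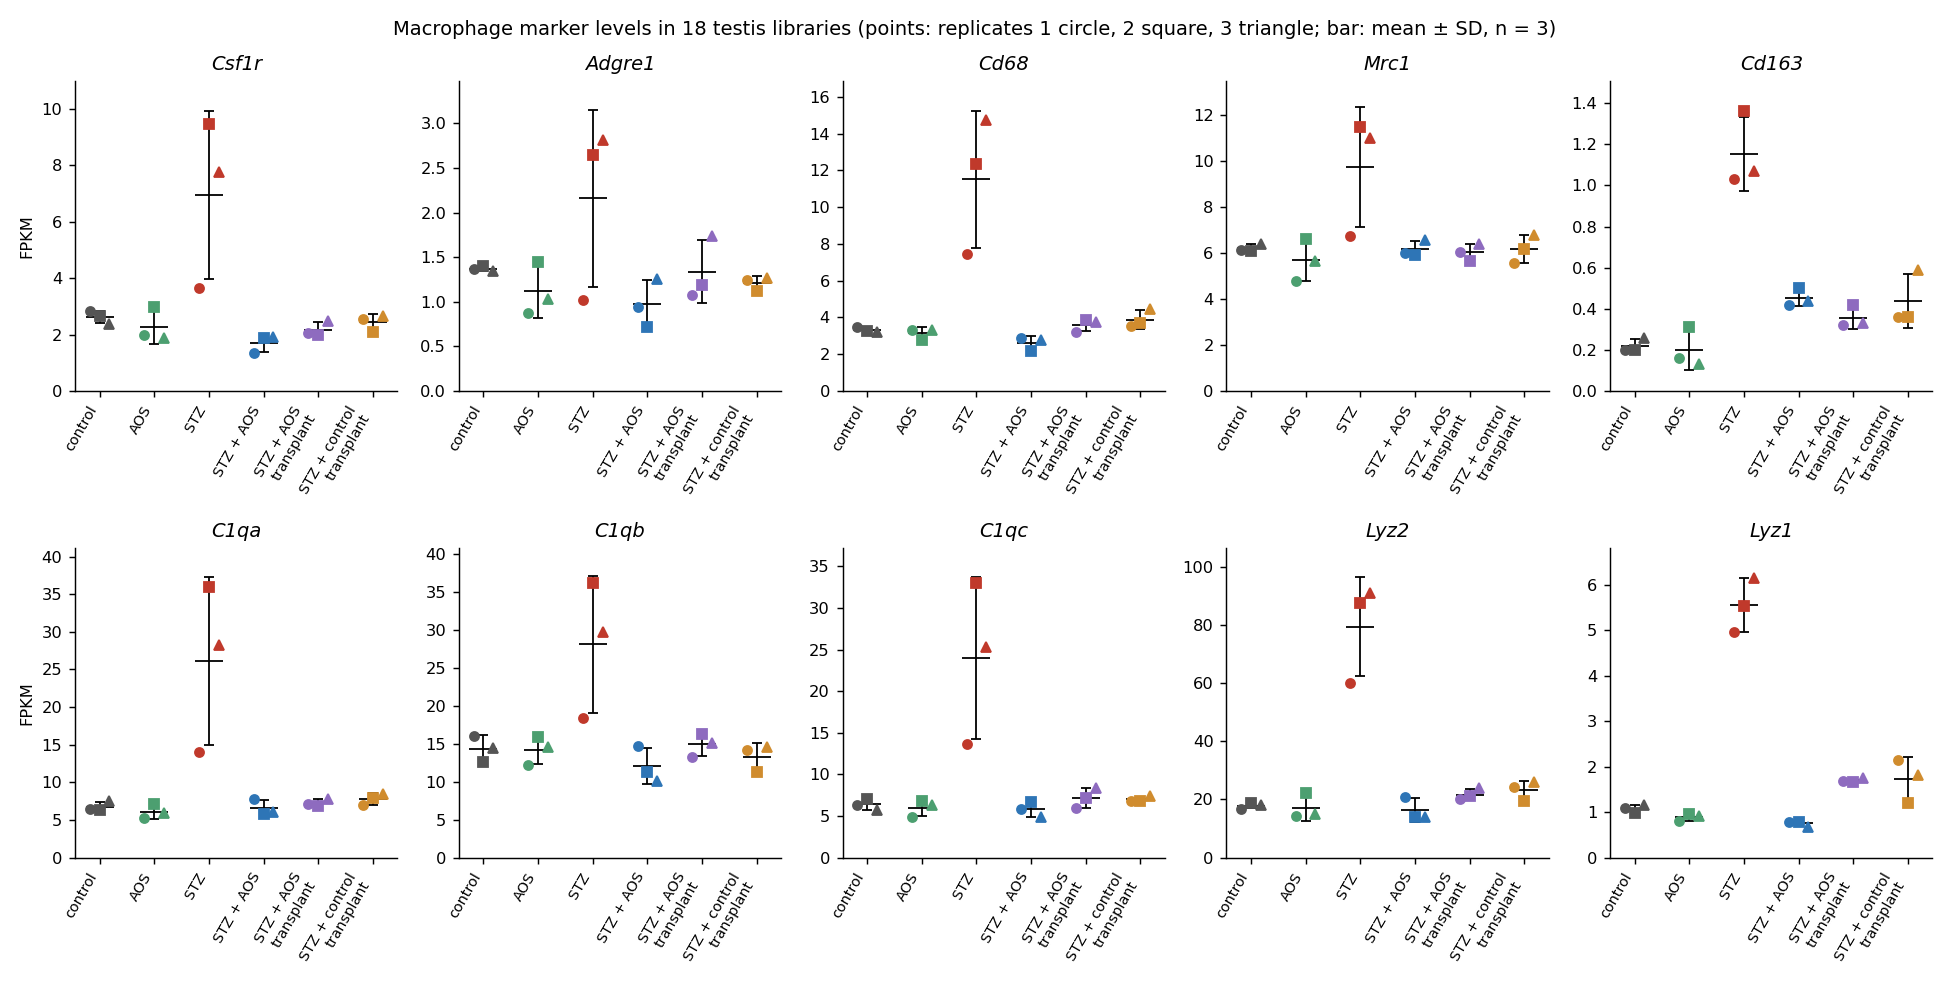
FPKM of each macrophage marker (vertical axis, a separate linear scale per gene) in the 18 libraries, grouped by treatment along the horizontal axis; points are single libraries and black bars the mean ± SD of 3 libraries. The STZ points lie above the other groups in every panel except that STZ replicate 1 falls among the other libraries for Adgre1 and Mrc1, while Cd163 also sits higher in the 3 treated STZ groups than in control and AOS.

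The first comparison, STZ with control, addresses which markers changed after streptozotocin. Of the 10 markers 9 rose and none fell (limma, Benjamini-Hochberg adjusted p under 0.05 over 14164 genes), with a median log2 fold change of 1.27. Across all genes tested 43.2% rose and 12% fell, with a median log2 fold change of 0.17. Cd163 reached 1 FPKM in the 3 STZ libraries only and so passed the filter on low values through them. Without it the count was 8 of 9, and the median 1.49. For 9 markers, all but Adgre1, the 3 STZ libraries lay above the 3 control libraries, which was the case for 42.1% of all genes. The share of marker genes that rose is to be read against these shares, since a large part of the transcriptome moved.

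Of the receptors, Csf1r was at 3.64, 9.45 and 7.75 FPKM in STZ replicates 1, 2 and 3, and at 2.82, 2.67 and 2.39 FPKM in control replicates. The groups did not overlap, and STZ replicate 1 was the lowest of its group. The log2 fold change, computed like all others on log2(FPKM + 1), which understates the change of low genes, was 1.05 (SE 0.22, limma adjusted p = 0.000811), and 0.67 after quantile normalization. The exons of Csf1r share 873 of their 5774 bases with Hmgxb3 on the opposite strand, and whether reads were counted by strand is not given in the sources used here.

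Adgre1 was at 1.02, 2.65 and 2.82 FPKM in STZ and at 1.37, 1.40 and 1.34 FPKM in control libraries. STZ replicate 1 lay below all control libraries and replicates 2 and 3 above them. The log2 fold change was 0.36 (SE 0.19, limma adjusted p = 0.124), 0.66 without STZ replicate 1 (adjusted p = 0.000688) and -0.01 after quantile normalization (adjusted p = 0.959). The gene most used to recognise mouse macrophages was thus the only marker without a call.

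The lysosomal gene Cd68 was at 7.44, 12.35 and 14.76 FPKM in STZ and at 3.49, 3.25 and 3.20 FPKM in control libraries. Every STZ library exceeded every control library, and the log2 fold change was 1.49 (SE 0.17, adjusted p = 3.59e-06). Mrc1 changed least among the called markers, from 6.15, 6.11 and 6.42 FPKM in control to 6.75, 11.49 and 11.00 FPKM in STZ. Its lowest STZ library lay just above the highest control library, and the log2 fold change was 0.54 (SE 0.14, adjusted p = 0.00468). This call was lost after quantile normalization (0.19, adjusted p = 0.166) and median centring (0.20, adjusted p = 0.139), and in a fit of these 2 groups alone (0.54, adjusted p = 0.0519).

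Cd163, the other scavenger receptor, rose from 0.20, 0.20 and 0.26 FPKM in control to 1.03, 1.36 and 1.07 FPKM in STZ libraries. The groups were widely separated and, unlike for Mrc1 and Adgre1, STZ replicate 1 lay near replicate 3. The log2 fold change was 0.82 (SE 0.09, adjusted p = 5.55e-06), or 1.97 with a pseudocount of 0.1 in place of 1, which compresses low values less. With no filter on low values the adjusted p was 1.25e-06.

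Among the C1q chains, C1qa was at 13.98, 36.00 and 28.22 FPKM in STZ and at 6.41, 6.34 and 7.52 FPKM in control libraries. C1qc was at 13.68, 32.97 and 25.25 FPKM in STZ and at 6.37, 7.04 and 5.78 FPKM in control libraries. The level of C1qc was 0.769 to 1.11 times that of C1qa in control libraries and 0.895 to 0.979 times in STZ libraries. The A and C chains thus had similar levels. Their log2 fold changes were 1.71 (SE 0.23, adjusted p = 1.68e-05) and 1.68 (SE 0.22, adjusted p = 1.39e-05). The order of STZ libraries was the same for the A, B and C chains. C1qb, the B chain, started from a higher level, 16.08, 12.62 and 14.40 FPKM in control libraries, and reached 18.43, 36.24 and 29.73 FPKM in STZ. The groups did not overlap for any chain, and the log2 fold change of C1qb was 0.88 (SE 0.19, adjusted p = 0.00128), and 0.54 under median centring.

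The C1qb/C1qa ratio of FPKM within a library was 2.51, 1.99 and 1.92 in control replicates and 1.32, 1.01 and 1.05 in STZ replicates. The means were 2.14 ± 0.323 and 1.13 ± 0.168, and the STZ group had the lowest mean of the 6 groups, with means of 1.72 to 2.34 in AOS and the treated STZ groups. The C1qc/C1qa ratio was 0.958 ± 0.174 in control and 0.930 ± 0.0436 in STZ libraries. The ratio of the B to the A chain was thus lower in every STZ library than in every control library, while the ratio of the C to the A chain differed by less than the spread between libraries. In all, 10 such ratios between markers were computed. A two-sided exact permutation test of 3 against 3 libraries cannot give less than p = 0.1, which the C1qb/C1qa ratio and 7 others reached (adjusted p = 0.125 over the 10 ratios); C1qc/C1qa gave p = 0.9 and Lyz1/Lyz2 p = 0.2.

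**Figure D2:**
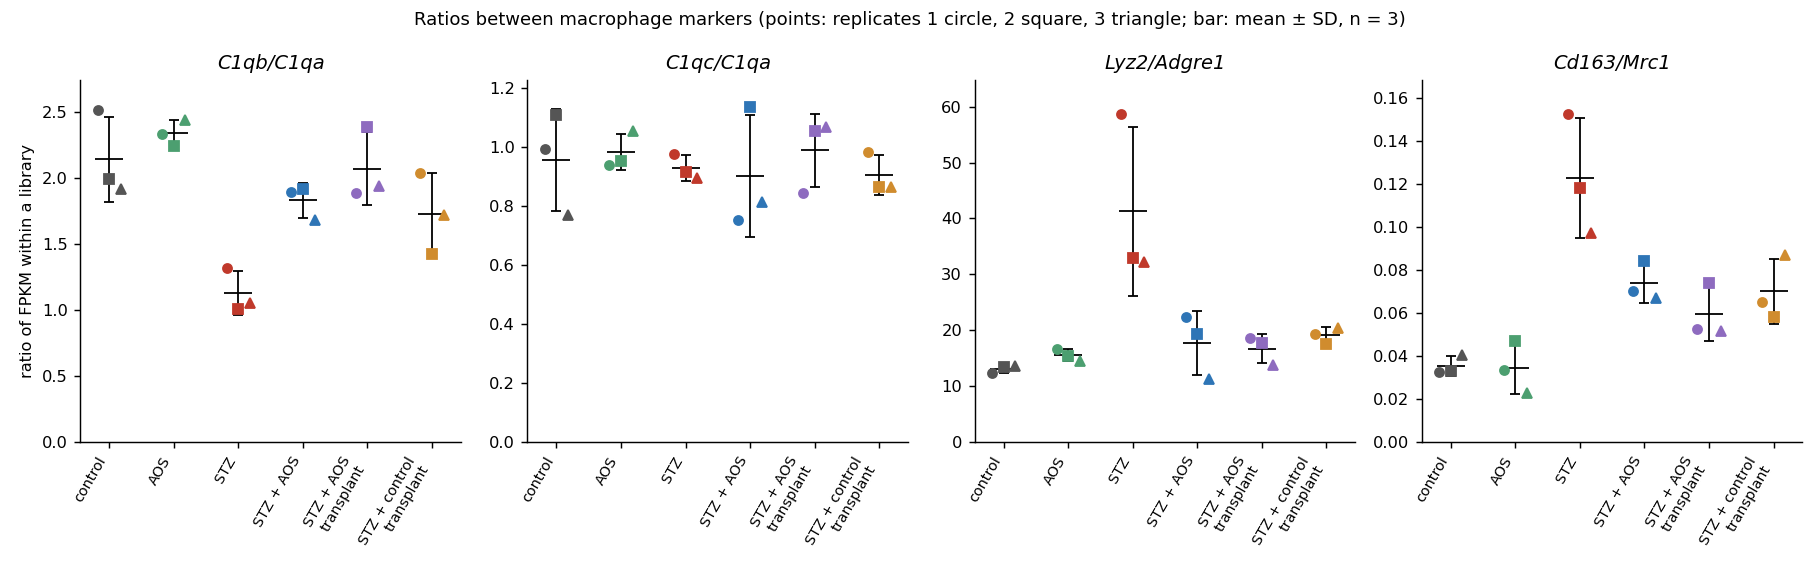
Ratios of FPKM between pairs of macrophage markers within a library (vertical axes, linear from 0) in the 6 groups; points are single libraries and black bars the mean ± SD of 3 libraries. The C1qb/C1qa ratio is 1.13 ± 0.168 in STZ against 2.14 ± 0.323 in control, C1qc/C1qa stays near 0.9 to 0.99 on average in all 6 groups, and Lyz2/Adgre1 and Cd163/Mrc1 are highest in STZ.

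Lyz2 showed the largest log2 fold change of the 10 markers on the log2(FPKM + 1) scale. It was at 59.99, 87.38 and 90.74 FPKM in STZ and at 16.81, 18.65 and 18.25 FPKM in control libraries, far apart in every library, and the log2 fold change was 2.07 (SE 0.18, adjusted p = 4.1e-07). Lyz1 was at 4.96, 5.53 and 6.15 FPKM in STZ and at 1.09, 0.97 and 1.15 FPKM in control libraries. Its 3 STZ libraries lay close together, and it had the smallest adjusted p of the 10 (1.66, SE 0.11, adjusted p = 3.22e-08). With a pseudocount of 0.1 the value was 2.27 for Lyz1 and 2.12 for Lyz2. The lysozyme genes share sequence: 15.39% of the 50-base words in Lyz2 transcripts occur in Lyz1, and 16.06% of those in Lyz1 occur in Lyz2. No source used here says how reads of shared stretches were assigned. The level of Lyz1 was 0.06 ± 0.00694 of that of Lyz2 in control and 0.0713 ± 0.0102 in STZ libraries, so its values in particular are uncertain.

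Since a call in one marker and not in another does not show a difference, each was also tested relative to Adgre1, by subtracting the log2 value of Adgre1 in the same library. Of the other 9 markers 6 rose more than Adgre1 and none rose less. Across all genes 6.04% were higher and 3.52% lower relative to Adgre1. The differences in log2 fold change were 1.71 for Lyz2, 1.35 for C1qa, 1.31 for C1qc, 1.30 for Lyz1, 1.13 for Cd68 and 0.69 for Csf1r. That of Csf1r was lost when any single control library or STZ replicate 2 was left out (lowest 0.59, adjusted p = 0.121), with a pseudocount of 0.1 (0.77, adjusted p = 0.198) and with only the groups compared (0.69, adjusted p = 0.128). C1qb (0.52), Cd163 (0.46) and Mrc1 (0.18) were not called, C1qb being called without STZ replicate 1 (0.49, adjusted p = 0.0229) and after quantile normalization (0.72, adjusted p = 0.0123). The Lyz2/Adgre1 ratio was 12.27, 13.32 and 13.62 in control and 58.81, 32.97 and 32.18 in STZ libraries.

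Levels of other somatic cell genes rose in the same libraries, and those of 8 late spermatid genes fell (8 of 8, or 6 after quantile normalization). All 12 Sertoli cell genes rose (11 under either other scaling), from a summed 747.5 ± 37.6 FPKM in control to 2092 ± 302 FPKM in STZ libraries, with a median log2 fold change of 1.19. The markers were therefore also tested relative to the mean of these 12 genes in each library. On this scale Lyz2 (0.79, adjusted p = 6.02e-05), C1qa (0.43, adjusted p = 0.02), C1qc (0.40, adjusted p = 0.0236) and Lyz1 (0.38, adjusted p = 0.00288) were higher in STZ than in control. Adgre1 (-0.91), Mrc1 (-0.73), Cd163 (-0.46) and C1qb (-0.40) were lower, and Csf1r (-0.22, adjusted p = 0.189) and Cd68 (0.22, adjusted p = 0.079) were not called. Of all genes 0.812% were higher and 93.8% lower on this scale. Of the 10 markers 4 thus rose more than the Sertoli genes in these libraries.

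Several of these calls were not stable. Those of C1qa and C1qc were lost with only the groups compared, after quantile normalization, and without STZ replicate 2 (0.21, adjusted p = 0.172, and 0.19, adjusted p = 0.199), and each was lost without 2 of the control libraries as well. Without STZ replicate 1 they were 0.68 and 0.61. Lyz1 lost its call after quantile normalization (0.11, adjusted p = 0.432) and was at 0.89 with a pseudocount of 0.1, and C1qb without STZ replicate 1 (-0.27, adjusted p = 0.0741). Without that library Cd68 was called higher (0.34, adjusted p = 0.00636), as it was with a pseudocount of 0.1 (0.33, adjusted p = 0.0295), and without STZ replicate 2 Csf1r was called lower (-0.41, adjusted p = 0.0188). Cd163 turned to 0.59 with a pseudocount of 0.1 (adjusted p = 0.0632). The calls of Lyz2, Adgre1 and Mrc1 held under all of the alternatives run.

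**Figure D3:**
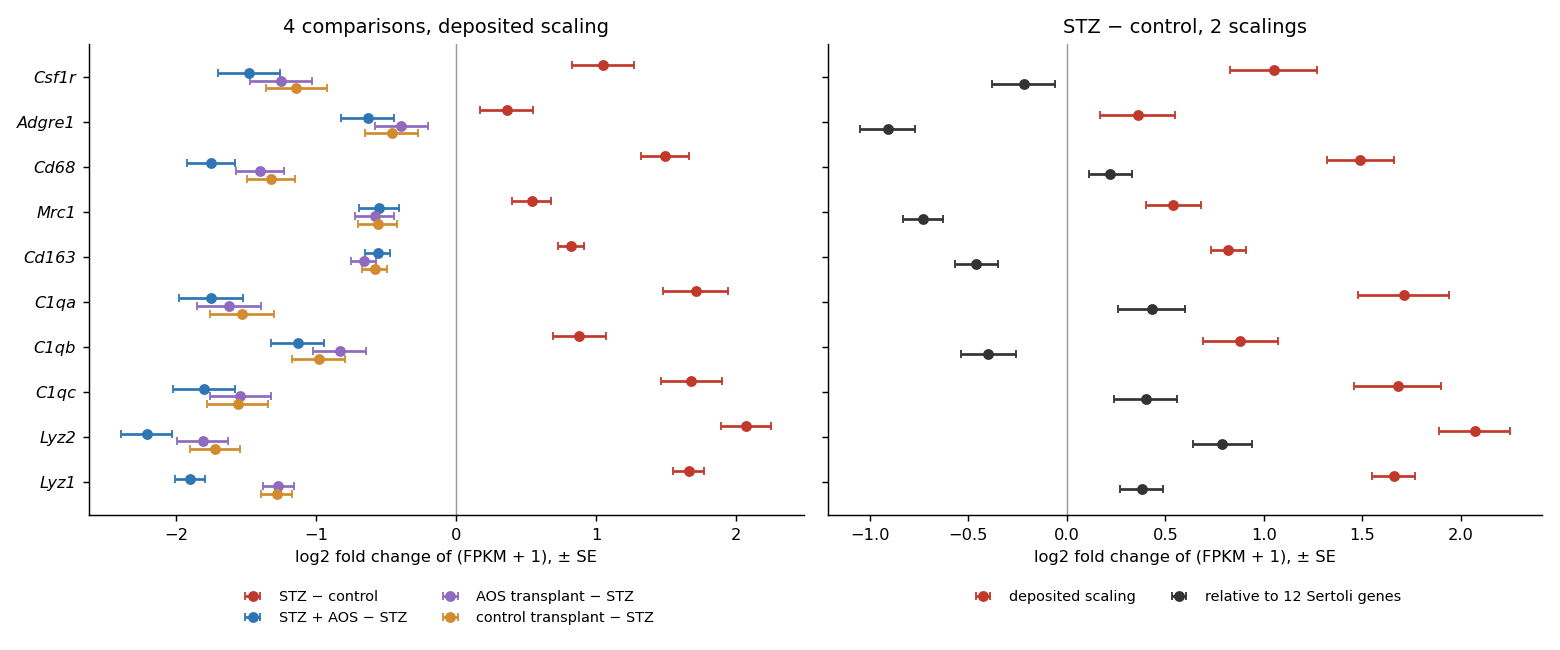
Log2 fold change of (FPKM + 1) on the horizontal axis for the 10 markers, as points with SE from limma; left, STZ minus control and each treated STZ group minus STZ, with the values as deposited; right, STZ minus control as deposited and relative to the mean of 12 Sertoli genes. Each marker lies right of 0 for STZ minus control and left of 0 for the 3 treated groups, while relative to Sertoli genes Lyz2 is at 0.79 and Adgre1 at -0.91.

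The next comparisons ask how the markers stood in mice given AOS or a transplant as well as streptozotocin. All 10 markers were lower in STZ + AOS than in STZ, where 43.1% of all genes were lower. In the AOS-transplant group 9 of 10 were lower than in STZ (44.5% of all genes), and in the control-transplant group likewise 9 of 10 (39.9% of all genes), Adgre1 being the marker without a call in both. Without Cd163, which passed the filter through the STZ libraries, the counts were 9, 8 and 8 of 9. The median log2 fold changes of the markers were -1.62, -1.26 and -1.21, against -0.17, -0.18 and -0.15 over all genes. These comparisons share the 3 STZ libraries, and those of STZ with control do too.

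Lyz2 was at 21.00, 13.95 and 14.11 FPKM in STZ + AOS libraries, 20.08, 21.02 and 23.93 FPKM in AOS-transplant and 24.15, 19.51 and 25.92 FPKM in control-transplant libraries. All 9 libraries lay below the lowest STZ library, at 59.99 FPKM. Against STZ its log2 fold changes were -2.21 (adjusted p = 3.22e-07), -1.81 (adjusted p = 1.47e-06) and -1.72 (adjusted p = 3.45e-06), each with SE 0.18. Cd68 gave -1.75, -1.40 and -1.32 in the same order, with group means of 2.60 ± 0.363, 3.61 ± 0.342 and 3.88 ± 0.499 FPKM.

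All 3 C1q chains were lower in the treated groups. C1qa was at 7.76, 5.86 and 6.04 FPKM in STZ + AOS, 7.07, 6.84 and 7.80 FPKM in AOS-transplant and 6.94, 7.91 and 8.49 FPKM in control-transplant libraries. All lay below the lowest STZ library, at 13.98 FPKM, and the log2 fold changes against STZ were -1.75, -1.62 and -1.53. C1qc gave -1.80, -1.54 and -1.56, and C1qb, from 10.14 to 16.32 FPKM in the 9 libraries, gave -1.13, -0.83 and -0.98 (adjusted p = 0.00191 at the most). The C1qb/C1qa ratio was 1.83 ± 0.13, 2.07 ± 0.277 and 1.72 ± 0.308, above that of the STZ group in all 9 libraries.

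Csf1r was at 1.34, 1.89 and 1.90 FPKM in STZ + AOS, 2.04, 2.0 and 2.47 FPKM in AOS-transplant and 2.54, 2.10 and 2.64 FPKM in control-transplant libraries. None reached the lowest STZ library, at 3.64 FPKM, and the log2 fold changes against STZ were -1.48, -1.25 and -1.14 (adjusted p = 0.00053 at the most). Adgre1 was at 0.94, 0.72 and 1.26 FPKM in STZ + AOS, 1.08, 1.19 and 1.74 FPKM in AOS-transplant and 1.25, 1.12 and 1.27 FPKM in control-transplant libraries. STZ replicate 1, at 1.02 FPKM, lay among or below these. The log2 fold changes were -0.63 (adjusted p = 0.0115), -0.39 (adjusted p = 0.0952) and -0.46 (adjusted p = 0.0572).

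The Adgre1 calls turned on single libraries. The first was lost without STZ replicate 2 (-0.50, adjusted p = 0.0617), STZ replicate 3 (-0.47, adjusted p = 0.0733) or STZ + AOS replicate 2 (-0.54, adjusted p = 0.051), and under both other scalings. The transplant comparisons passed without STZ replicate 1 (-0.69, adjusted p = 0.00045, and -0.76, adjusted p = 0.000222). Mrc1 fell by 0.55, 0.58 and 0.56 on the log2 scale, with all 9 treated libraries between 5.55 and 6.77 FPKM, the range that also held STZ replicate 1. None of these 3 calls held after quantile normalization or median centring, where the changes were -0.20 to -0.24.

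The lysozyme gene Lyz1 was at 0.79, 0.79 and 0.68 FPKM in STZ + AOS, below all control libraries, and at 1.69, 1.67 and 1.75 FPKM in AOS-transplant and 2.15, 1.19 and 1.82 FPKM in control-transplant libraries, above all of them. Against control its log2 fold changes were -0.24 (adjusted p = 0.615), 0.39 (adjusted p = 0.562) and 0.38 (adjusted p = 0.564), none of them called. Between the treated groups Lyz1 was higher by 0.63 in AOS-transplant than in STZ + AOS (adjusted p = 0.336) and by 0.62 in control-transplant (adjusted p = 0.149), without overlap, and without a call. The second was called when control-transplant replicate 2 was left out. Lyz2 in the same libraries overlapped between STZ + AOS and both transplant groups.

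Cd163 was at 0.42, 0.50 and 0.44 FPKM in STZ + AOS, 0.32, 0.42 and 0.33 FPKM in AOS-transplant and 0.36, 0.36 and 0.59 FPKM in control-transplant libraries. Each of the 9 lay between the highest library without streptozotocin, at 0.31 FPKM in the AOS group, and the lowest STZ library, at 1.03 FPKM. Against STZ the log2 fold changes were -0.56 (adjusted p = 0.000155), -0.66 (adjusted p = 3.19e-05) and -0.58 (adjusted p = 0.000139). The first was lost under median centring (-0.22, adjusted p = 0.0543). Against control they were 0.25, 0.15 and 0.23 and were not called (adjusted p = 0.509, 0.814 and 0.727).

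Pooling the 9 treated STZ libraries and the 6 libraries without streptozotocin, a comparison chosen after the values were seen, gave 0.416 ± 0.0872 and 0.21 ± 0.0657 FPKM of Cd163 (SD, n = 9 and 6). No test is given for this split, which was picked from the values themselves. Relative to Mrc1, the ratio of Cd163 was 0.0353 ± 0.00455 in control, 0.123 ± 0.0279 in STZ and 0.0594 ± 0.0126 to 0.0738 ± 0.00924 in the treated groups. All these Cd163 levels are below 1 FPKM, and the reads behind them are not known.

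No marker was called between any treated STZ group and control. The background was 0.0424% of all genes for STZ + AOS and 0% for each transplant group. At an unadjusted p under 0.05 the counts were 2, 1 and 2 markers. No marker was called between the transplant groups, where 0% of all genes were, and none passed at an unadjusted p under 0.05, with log2 fold changes of -0.11 to 0.16. Between AOS-transplant and STZ + AOS, and between control-transplant and STZ + AOS, comparisons chosen after the values were seen, no marker was called either (0% and 0.00706% of all genes), and 3 markers passed at an unadjusted p under 0.05 in each. These markers were Cd68, Lyz1 and Lyz2, with their lowest means in STZ + AOS. The shares of all genes given here are for calls by adjusted p. At an unadjusted p under 0.05 that share was not computed, so the unadjusted counts have no background and are not read as a result. Misses of the threshold do not show equal levels, with 3 libraries a group and SE of 0.09 to 0.23.

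AOS without streptozotocin was compared with control to give its effect alone. None of the 10 markers was called, 0 passed at an unadjusted p under 0.05, and 0% of all genes were called. The log2 fold changes were -0.17 to -0.02. Lyz1 was at 0.80, 0.96 and 0.91 FPKM with AOS, just below the lowest control library at 0.97 FPKM (-0.13, SE 0.11, limma adjusted p = 0.752). The difference between the effect of AOS with and without streptozotocin was then tested as an interaction. It was negative and called for 8 markers, with 29.1% of all genes called lower, and for 7 of 9 without Cd163, and ranged from -0.54 for Cd163 to -2.13 for Lyz2. Adgre1 (-0.46, adjusted p = 0.2) and Mrc1 (-0.44, adjusted p = 0.103) were not called. An F test over all 6 groups called 9 of the 10 markers, Adgre1 excepted (adjusted p = 0.112), and 52.3% of all genes. Without Cd163 it called 8 of 9.

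Over all 18 libraries each pair of markers correlated positively, with Pearson r of 0.572 to 0.976 over the 45 pairs (median 0.9). Over the 15 libraries outside the STZ group r was -0.159 to 0.83 (median 0.431). There Lyz2 was closest to C1qa (0.83) and Csf1r to Adgre1 (0.707), while Cd163 followed the mean of the other markers least (0.217). The 10 genes outside the set whose log2 values followed the markers' mean best over 18 libraries were Hgsnat (r = 0.983), Vwa5a, Cd151, Maged2, Gapdh, Adcy7, Lrrk1, C1ra, Fxyd6 and Igfbp4 (0.978). Only C1ra among these, which encodes a protease that binds C1q, belongs to the lists below. Its level was 6.61 FPKM in control and 22.6 FPKM in STZ on average. These correlations are descriptions over libraries that share a large group difference.

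Genes that act on or with the markers were counted from lists, among those that passed the filter on low values, against 43.2% of all genes higher and 12% lower in STZ than in control. These shares hold for the values as deposited, with 6118 genes higher and 1705 lower of 14164. After quantile normalization 3156 were higher and 4093 lower, and under median centring 2678 and 6119. With no filter on low values, where more genes were tested, 7023 were higher and 1655 lower. Matching shares for the other restricted counts are not given. Some of the listed genes passed the filter only through the STZ libraries, where they were high. They are Il34, Lyve1, Vsig4, Cd14, Gpnmb, Coro1a, Cd53, Ptpn6, Itgb2, Cfi, Itgam and Slc40a1, and each count is given again without them. Of 10 growth factor and lineage regulator genes 9 rose and none fell (8 of 9 without Il34; 8 rose and 1 fell under either other scaling). They included both ligands of the receptor encoded by Csf1r, Csf1 (log2 fold change 0.90, adjusted p = 0.000653) and Il34 (0.92, adjusted p = 0.000192), and the transcription factor genes Cebpb (1.67), Maf (0.88) and Ets2 (0.64). Spi1, which encodes PU.1, rose by 0.98 (adjusted p = 0.00184). Of 11 other macrophage genes 8 rose and 1 fell (7 and 1 under median centring). Among the 7 that passed outside STZ the counts were 4 and 1, and without STZ replicate 2 or 3 they were 6 and 0 of 9 tested. The list holds them the pore-forming protein gene Mpeg1 (1.88), Gpnmb (3.08), the endotoxin co-receptor gene Cd14 (2.67) and the receptor gene Mertk (0.84), which takes up dying cells. Aif1 fell (-0.32, adjusted p = 0.011) from a mean of 331.7 to 269.5 FPKM, levels far above those of every marker. The late spermatid genes fell in the same comparison, and which cells carried the Aif1 transcript was not tested. Of 9 genes of leukocytes in general 8 rose (4 of the 5 that passed outside STZ), led by the adaptor gene Tyrobp (1.97), the integrin gene Itgb2 (1.16), Cd53 (0.93) and Lcp1 (1.73).

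Downstream of C1q, 12 of 14 genes of the classical complement pathway and its regulators rose and none fell (11 of 13 without Cfi; 11 and 1 under either other scaling). The protease gene C1s1 rose by 2.33, C4b by 1.97, and the inhibitor genes Cfi and Serping1 by 2.06 and 1.87. Median log2 fold changes were 1.31 for this list and 1.71, 0.88 and 1.68 for C1qa, C1qb and C1qc themselves. All 4 measured binding partners and receptors of C1q and complement rose, Lrp1 (1.12), Itgam (1.01), C1qbp (0.63) and Calr (0.25), 3 of them under median centring and 3 of 3 without Itgam. Of 7 genes that handle haemoglobin and haem, the pathway that Cd163 feeds, all 7 rose (6 of 6 without Slc40a1, 4 of 6 tested without STZ replicate 2 or 3, 3 after quantile normalization and 4 under median centring), with the ferritin genes Ftl1 (1.21) and Fth1 (0.90), the haem oxygenase gene Hmox1 (1.07) and the iron exporter gene Slc40a1 (0.56). Of 6 other scavenger receptor genes related to Mrc1 and Cd163 only Scarb1 (0.36) and Stab1 (0.42) rose, with Cd5l at -0.64 (adjusted p = 0.0779) and Msr1 at 0.11 (adjusted p = 0.448). None of the 6 was higher under median centring, 1 was after quantile normalization, and 2 were lower under both. None was higher without STZ replicate 2 or 3. With no filter on low values 4 of 10 genes of this list were higher.

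In the treated STZ groups these lists were counted against STZ. Growth factors and regulators were lower for 9 of 10 genes in each of the 3 groups, leukocyte genes for 8 of 9 and complement genes for 12 of 14. Other macrophage genes were lower for 10, 8 and 7 of 11 in STZ + AOS, AOS-transplant and control-transplant, with 1 gene higher in each. That gene was Aif1 (log2 fold changes 0.28, 0.31 and 0.38), and all 8 late spermatid genes were also higher in each group. The background shares are 43.1%, 44.5% and 39.9% lower, as above. Among genes that passed outside STZ the counts in each group were 8 of 9 regulators, 4 of 5 leukocyte and 11 of 13 complement genes, and 6, 4 and 3 of 7 other macrophage genes. In STZ + AOS 1 complement gene was higher. Of the 6 scavenger receptor genes 3, 2 and 2 were lower, with 1 higher in AOS-transplant.

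Markers of other cells that express some of these genes were also read in every library. Neutrophils carry Lyz2, and of 10 neutrophil genes none passed the filter, while 2 were called higher in STZ than in control with no filter. Their summed level was 1.43, 5.37 and 2.31 FPKM in STZ libraries, 0.56 to 7.63 FPKM in control, and at most 4.98 FPKM elsewhere. S100a8 was listed at 0 in 15 of 18 libraries with 0.3 FPKM at the most, and Ly6g at 0 in 16. Mean levels in STZ and control were 1.38 and 0.1 FPKM for Camp, 0.59 and 0.19 FPKM for Csf3r, and 0.503 FPKM for S100a9, which was listed at 0 in control. Camp reached 1 FPKM in 1 of 18 libraries only, at 3.66 FPKM. Ltf went the other way, with means of 0.133 FPKM in STZ and 2.37 FPKM in control. It reached 1 FPKM in 2 of 18 libraries, with 6.91 FPKM at the most, and made up most of the highest control sum. Of 8 monocyte genes 6 were tested and 2 rose, Ifitm3 (2.04) and F13a1 (0.55), while Chil3 (0.37, adjusted p = 0.165) was not called. The count was 1 under either other scaling, 3 without STZ replicate 1 and 1 without STZ replicate 3. With no filter on low values it was 4 of 8. The monocyte sum was 58.8 to 121.3 FPKM in STZ and 31.71 to 34.92 FPKM in control libraries, or 16.44 to 24.8 and 14.62 to 17.65 FPKM without Ifitm3. Ccr2, the receptor of classical monocytes, averaged 1.16 FPKM in STZ and 0.103 FPKM in control, and did not pass the filter.

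Summed levels of 8 dendritic cell genes (6.48 to 7.19 FPKM in STZ, 5.47 to 5.69 FPKM in control), of 12 T, B and NK cell genes (5.5 to 7.56 and 5.26 to 8.29 FPKM) and of 6 mast cell genes (1 to 1.7 and 0.84 to 1.77 FPKM) were low in all groups. No gene of these lists was called, with 1, 2 and 1 tested. After quantile normalization 1 dendritic cell gene fell, and under either other scaling 1 gene of the T, B and NK list did. With no filter on low values, 2 of 12 T, B and NK cell genes were higher in STZ than in control. The same setting gave 0 of 8 dendritic cell and 0 of 5 mast cell genes. The mast cell gene Ms4a2 was listed at 0 in all 18 libraries. MHC class II genes, which macrophages share with dendritic and B cells, rose for 5 of 6 (4 under either other scaling), with Cd74 (2.82), H2-Aa (2.68), H2-Ab1 (1.67) and H2-DMb1 (0.90). Endothelial genes, some cells of which carry Mrc1, rose for 5 of 6, led by Pecam1 (0.82), Kdr (0.65), Emcn (0.68) and Cdh5 (0.50), but for 1 of 6 after quantile normalization and 2 under median centring. Leydig genes rose for 1 of 8 (Nr5a1, 1.23), peritubular myoid genes for 5 of 6 (Myl9, 1.00; 4 under either other scaling), red cell genes for 1 of 4 (Alas2, 0.52) and fat cell genes for 1 of 5 (Lpl, 1.03). After quantile normalization 3 Leydig genes were higher, red cell genes had none higher under median centring, and fat cell genes had 0 higher and 1 lower under both. Without STZ replicate 1, 6 of 8 Leydig, 3 of 5 fat cell and 2 of 4 red cell genes were higher, and without STZ replicate 3 no fat cell gene was higher and 1 was lower. The part of these cells in the marker levels was not tested.

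**Figure D4:**
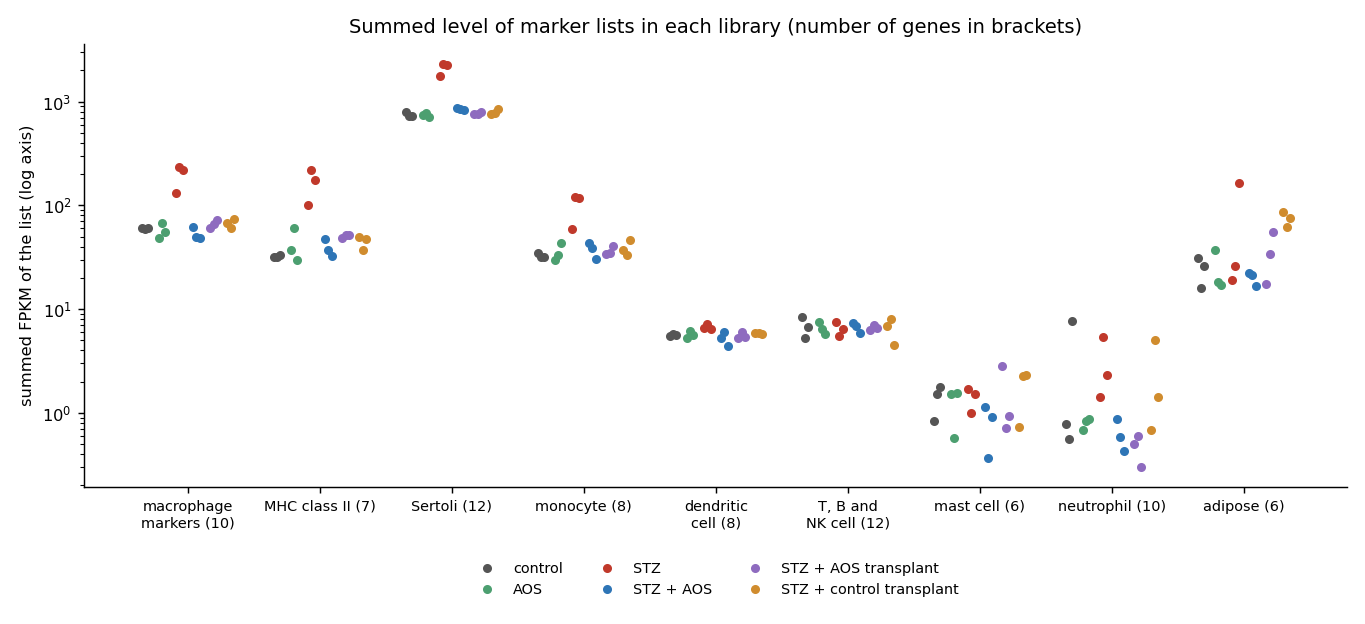
Summed FPKM (vertical log axis) of the 10 macrophage markers and of 8 lists of other genes in each of the 18 libraries, coloured by group. The macrophage marker sum is 130.9 to 235.4 FPKM in STZ and 48.63 to 73.87 FPKM elsewhere. Sertoli, monocyte and MHC class II sums are highest in the STZ libraries. Dendritic and T, B and NK cell sums stay between 4.36 and 8.29 FPKM. The neutrophil sum is high in single libraries of several groups, and the highest control sum is mostly the single gene Ltf.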

How the data were processed

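RNA from 18 testis libraries, 3 in each of 6 groups, was deposited by the authors as 1 table of a value per gene and library whose header names no unit. The deposited values were taken as FPKM: in 564 low genes with 1 transcript, the smallest step between values fell with transcript length (Spearman -0.707; median step 0.06 under 2000 bases and 0.02 from 4000 bases on), which RPKM would share. The submitters' processing notes name Bowtie 0.12.2 and the build mm10 without a role. The counter used is not given in the sources used here, nor is the annotation, and depth is unknown, so no counting interval was computed.

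Tests used limma 3.58.1 (trend, R 4.3.3) on log2(FPKM + 1) for the 14164 genes with at least 1 FPKM in at least 3 of 18 libraries, in 1 model that fitted each group's mean, without a replicate block. Calls used a Benjamini-Hochberg adjusted p under 0.05 over all these genes, two-sided. The model was first tested on simulated data. All 10 markers passed the filter, Cd163 through the STZ libraries only. Alternatives were a pseudocount of 0.1, no filter, quantile normalization, median centring, only the groups compared, a replicate block, and leaving out each library; counts of other gene lists over genes that pass the filter outside STZ, and without each STZ library, were added after the data were seen. Log2 residuals of libraries with the same number in different groups correlated at -0.205 to 0.201 (median -0.023, 45 pairs). No pairing by number was thus seen, though residuals from means of 3 libraries cannot exclude one.

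The markers and all gene lists were chosen with earlier results of these data known. Text names the 10 markers, up to 4 genes with the smallest p per list with markers of other cells near 0 (Csf1, Spi1, Aif1, Ccr2 and Ltf were added after their values were seen), and the 10 genes most like the markers. A gene that this rule names is not reported here. Coordinates of genes are those of the GENCODE M21 annotation of GRCm38. Promoter sequences are from RefSeq (GRCm38.p6).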

Additional observations from a re-analysis of the deposited data

Results flagged for a closer look

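For 8 markers the effect of AOS with streptozotocin differed from that without it, by the interaction test in limma (adjusted p under 0.05). The differences on the log2 scale were -2.13 for Lyz2, -1.77 for Lyz1, -1.71 for C1qc, -1.69 for Cd68, -1.62 for C1qa, -1.31 for Csf1r, -1.11 for C1qb and -0.54 for Cd163. The level in STZ libraries enters each of these values, and 29.1% of all genes were called lower in the same test. Cd163 passed the filter on low values through the STZ libraries only, and without it 7 of 9 markers were called. Single outlying libraries within groups of 3 were not tested.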

How the results depend on the processing

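Of 197 counts of called markers under an alternative, 196 stayed within 1.5 times the main count. The exception was control-transplant against STZ + AOS, where leaving out 1 library gave 0 to 1 called markers. This rule is loose, since it passes a fall from 10 to 7 markers. Many of the 196 counts were 0 both in the main fit and under the alternative. Of 690 values of single markers, 643 kept direction and side of the threshold, 35 lost their call, 10 gained one and 2 changed sign: Adgre1 in STZ against control, -0.01 after quantile normalization, and Cd163 relative to Sertoli genes, 0.59 with a pseudocount of 0.1. The cause was not tested. No pairing of samples by number was seen (3 of 18 libraries were closest to their own number). With the replicate block, STZ against control again gave 9 called markers. Control-transplant against STZ gave 10 with this block, Adgre1 passing at limma adjusted p = 0.0433.

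The scaling moved the median log2 fold change of all genes in STZ against control from 0.17 to -0.06 (quantile normalization) and -0.17 (median centring), and that of the markers from 1.27 to 0.94 and 0.93. Of the genes called, 78.2% were higher as deposited, 43.5% after quantile normalization and 30.4% under median centring. Against STZ, the share that was lower went from 78.4% to 42.3% and 30.8% in STZ + AOS, from 78.7% to 43.2% and 30.2% in AOS-transplant, and from 77.8% to 45.1% and 29.7% in control-transplant. Under median centring 7 of 10 markers were called in STZ + AOS against STZ.

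With only the groups compared, all genes called fell from 7823 to 5209 (STZ against control), from 7786 to 5013 (STZ + AOS against STZ), from 8011 to 5299 (AOS-transplant) and from 7257 to 4248 (control-transplant), with 8, 9, 9 and 8 markers called, and rose from 6 to 89 in STZ + AOS against control and from 1 to 39 in control-transplant against STZ + AOS. Relative to Adgre1 the count of all genes was 1355, and 339 to 8234 over the alternatives, the highest without STZ replicate 1. Markers called in STZ against control numbered 8 to 9 over all alternatives. Without any single STZ library Cd163 did not pass the filter, and the 9 called without STZ replicate 1 were all 9 tested, Adgre1 included. The unknown depth limits what can be said of Cd163, Lyz1 and Adgre1, the lowest markers.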
